A study of Oryza sativa with 36 samples.

Results

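The genes described here are those whose RNA level differed in the same direction between nutrient-sufficient and nutrient-deficient rice in both leaf and root. A probe set, which is a group of array probes for 1 transcript, was taken when its mean log2 intensity was higher in sufficient than in deficient plants by 0.8 or more in all 6 pairs of genotype and tissue, or lower by 0.8 or more in all 6. The mean of the higher state also had to reach 6 in every pair. Of 57194 probe sets other than controls, 25758 met the level limit in all 6 pairs, and 124 of these met both limits. Of these, 1 that was higher and 1 that was lower belong to genes set aside by the rule and are not described here. The remaining 122 members were 89 risers, higher in sufficient plants, and 33 fallers, lower in sufficient plants. Since the nutrient difference chose them, every sufficient minus deficient value of a member below is a description with no test.

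The plants were LYP9, a hybrid, and its parents 9311 and PA64s, all Oryza sativa. After germination the seedlings grew for 5 days in nutrient soil blended with vermiculite and sand, and they were later moved to barrels of poor soil, where each barrel held 15 seedlings of every variety, so the varieties shared barrels. PA64s is a male-sterile line used as the seed parent, and 9311 is the pollen parent, which is background knowledge and not in the labels. When seedlings were 14 days old, 6 of 12 barrels received 10 g urea and 10 g compound fertiliser, which makes them the nutrient-sufficient state. The other barrels received none and are the nutrient-deficient state, so urea nitrogen and the elements of the compound fertiliser changed together. Leaf and root of each genotype and state were measured on 3 Affymetrix rice arrays, which gives 36 arrays in 12 groups. The labels do not say whether arrays of a group came from separate plants or barrels, so p-values measure only the spread between these samples. In bulk tissue, a change in the number of cells of a type and a change in RNA per cell cannot be told apart.

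The tissue labels were checked with 6 leaf markers, which averaged 11.45 to 11.87 log2 units in the leaf groups and 5.44 to 6.18 in the root groups. The 7 root markers had group averages of 5.88 to 6.14 for leaf and 9.34 to 11.41 for root. The median intensity of an array was 66.9 to 75.4 for leaf arrays and 66 to 74.5 for root arrays. Correlations between arrays of 1 group ran from 0.973 to 0.989, and no arrays were identical. The median nutrient difference over the 25758 probe sets that met the level limit lay between -0.01 and 0.07 in the 6 pairs.

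Rice takes nitrogen from soil as ammonium, nitrate and urea. Inside the plant, nitrogen from each of these reaches ammonium, which glutamine synthetase joins to glutamate, and glutamine then feeds the other amino acids. Uptake systems for scarce nutrients are often kept high in starved plants and low in fed ones, while assimilation enzymes often follow supply. Iron and zinc travel in the plant bound to nicotianamine, from which grasses also make the chelators that they release into soil to collect iron.

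The members were 122 probe sets of 89 genes in all, since 30 probe sets have no gene listed and 3 genes had 2 member probe sets each. The risers held 65 genes, 10 of them with a gene name beyond the locus identifier. The fallers held 24 genes, of which 4 have a name. In the pair where the difference was smallest, the risers differed by 0.80 to 4.29 log2 units with a median of 1.01, and 46 of 89 differed by 1 or more in every pair. The fallers differed by 0.80 to 2.21 with a median of 0.96, and 13 of 33 differed by 1 or more in every pair. Just inside the limit stood LOC4333329 at 0.80 and a riser with no gene listed at 0.81, and 2 fallers with no gene listed at -0.80 and -0.83. Just outside were LOC4327719 and LOC4334794, both at 0.80 after rounding, and LOC4348519 at -0.80 and LOC4339012 at -0.78. Probe sets on either side of the limit were thus set apart by less than the spread between arrays, whose median within-group SD was 0.53 for risers and 0.42 for fallers.

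**Figure D1:**
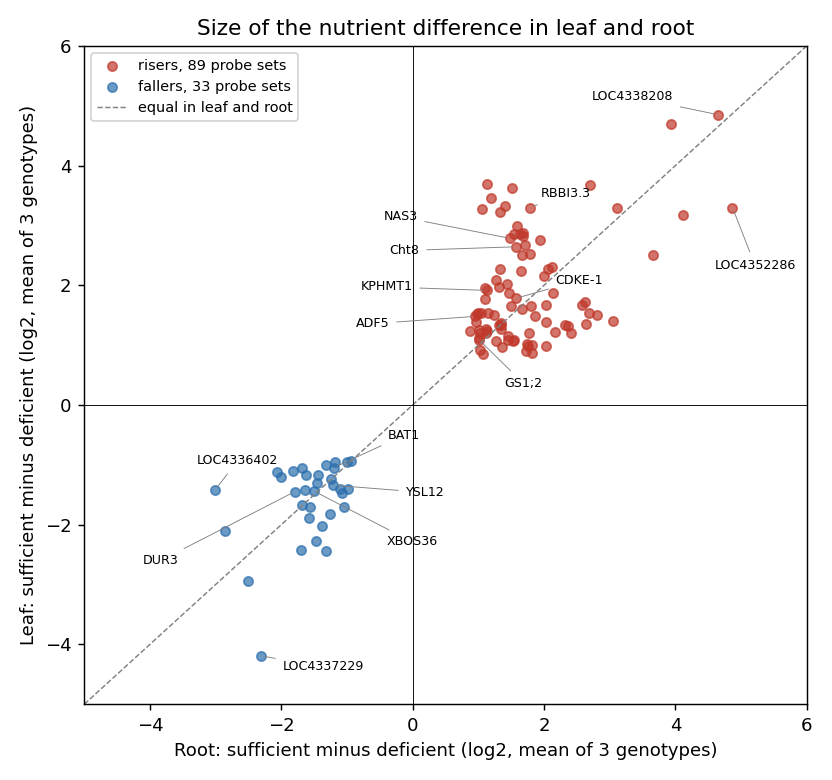
Mean sufficient minus deficient difference of each member in root (horizontal axis, log2) and leaf (vertical axis, log2), each the mean of 3 genotypes, with risers in red and fallers in blue. Members lie on both sides of the line of equal size, 53 risers having the larger difference in leaf and 35 in root.

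The riser with a named role in nitrogen assimilation was GS1;2 (LOC4332108), a cytosolic glutamine synthetase. In leaf, GS1;2 read 10.50, 10.09 and 10.28 in sufficient LYP9 against 9.12, 9.37 and 8.86 in deficient LYP9. In the parents it read 10.28, 9.89 and 9.79 in sufficient 9311 against 8.86, 9.05 and 8.53 in deficient 9311, and 10.20, 9.60 and 9.97 in sufficient PA64s against 9.20, 9.12 and 8.73 in deficient PA64s. Each genotype's sufficient leaf arrays all lay above its deficient ones. In root, GS1;2 stood higher in both states, at 13.51, 13.58 and 13.53 in sufficient LYP9 against 12.50, 12.96 and 11.96 in deficient LYP9. For the parents, root arrays gave 13.56, 13.64 and 13.30 in sufficient 9311 against 12.51, 12.56 and 12.31 in deficient 9311, and 13.77, 13.63 and 12.89 in sufficient PA64s against 12.21, 12.59 and 12.69 in deficient PA64s. Sufficient and deficient arrays did not overlap in any of the 6 pairs, and the mean difference was 1.09 in leaf and 1.01 in root, 2.12-fold and 2.02-fold. GS1;2 was 1 of 21 genes in a list of nitrogen uptake and assimilation genes, and the only one of them among the members.

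The riser of the iron list was NAS3 (LOC4344361), a nicotianamine synthase. In leaf, NAS3 read 10.94, 10.38 and 10.47 in sufficient LYP9 against 6.89, 9.18 and 6.68 in deficient LYP9. Its leaf values were 11.35, 11.06 and 10.20 in sufficient 9311 against 7.98, 8.90 and 8.19 in deficient 9311, and 9.58, 8.54 and 9.46 in sufficient PA64s against 5.84, 6.90 and 6.34 in deficient PA64s. Each genotype's sufficient leaf arrays all lay above its deficient ones. In root, NAS3 read 10.52, 10.68 and 10.54 in sufficient LYP9 against 8.72, 9.95 and 8.98 in deficient LYP9. In the parents it read 11.03, 10.64 and 10.32 in sufficient 9311 against 8.84, 9.36 and 8.61 in deficient 9311, and 11.55, 10.80 and 9.62 in sufficient PA64s against 8.95, 9.42 and 9.57 in deficient PA64s. The states did not overlap in any pair, and the mean difference was 2.79 in leaf, 6.89-fold, and 1.48 in root, 2.79-fold. In sufficient leaf the PA64s arrays lay under those of LYP9 and 9311, and in deficient leaf they lay under those of 9311 but overlapped LYP9. In root the genotypes overlapped in both states.

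D14 (LOC4331983) encodes the strigolactone receptor, which restrains tillering. In leaf, D14 read 12.64, 12.91 and 13.10 in sufficient LYP9 against 11.95, 11.96 and 11.89 in deficient LYP9. Its leaf values were 12.37, 12.97 and 13.11 in sufficient 9311 against 11.24, 12.17 and 12.29 in deficient 9311, and 12.82, 12.84 and 12.93 in sufficient PA64s against 11.33, 11.68 and 11.58 in deficient PA64s. Each genotype's sufficient leaf arrays all lay above its deficient ones. In root, D14 read 11.18, 11.49 and 12.17 in sufficient LYP9 against 10.16, 10.45 and 10.57 in deficient LYP9. For the parents, root arrays gave 11.06, 11.66 and 11.84 in sufficient 9311 against 9.75, 10.47 and 10.48 in deficient 9311, and 11.96, 11.90 and 11.77 in sufficient PA64s against 10.59, 10.41 and 10.74 in deficient PA64s. The array groups did not overlap in any pair, and the means differed by 1.07 in leaf and 1.27 in root. Among the arrays of deficient 9311, the first stood below the other two in both tissues.

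The risers with the largest differences carry only locus identifiers. LOC4338208 was measured by 2 member probe sets, whose smallest differences over the 6 pairs were 4.29 and 3.80. On the first of these in leaf, LOC4338208 read 11.62, 11.65 and 11.13 in sufficient LYP9 against 6.83, 6.62 and 6.64 in deficient LYP9. In the parents it read 11.15, 11.83 and 11.52 in sufficient 9311 against 5.34, 6.13 and 7.19 in deficient 9311, and 10.48, 10.53 and 11.10 in sufficient PA64s against 5.97, 6.61 and 6.02 in deficient PA64s. The lowest sufficient leaf array read 10.48 and the highest deficient one 7.19. In root, LOC4338208 read 12.87, 12.44 and 10.72 in sufficient LYP9 against 7.23, 7.84 and 6.82 in deficient LYP9. For the parents, root arrays gave 12.68, 13.06 and 12.91 in sufficient 9311 against 6.34, 8.33 and 9.12 in deficient 9311, and 12.55, 11.45 and 9.64 in sufficient PA64s against 8.04, 6.10 and 6.63 in deficient PA64s. All 6 pairs were free of overlap on both probe sets, and the mean differences were 4.85 in leaf and 4.65 in root on the first, and 4.70 in leaf and 3.94 in root on the second. The nearest approach in root lay between the third sufficient PA64s array, at 9.64, and the first deficient PA64s array, at 8.04.

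LOC4352286 came next. Its lowest, median and highest of 9 arrays were 6.81, 8.05 and 8.58 in sufficient leaf against 4.33, 4.54 and 4.85 in deficient leaf, and 10.02, 10.61 and 10.87 in sufficient root against 4.80, 5.94 and 6.47 in deficient root. The states were far apart in both tissues, and the mean difference was 3.3 in leaf and 4.87 in root. Another probe set of the gene, with a highest group mean of 5.94, differed by -0.02 to 0.53 in leaf and 1.32 to 2.49 in root. LOC4343216 read 8.97, 11.09 and 11.74 in sufficient leaf against 6.0, 7.80 and 8.99 in deficient leaf, and 9.17, 9.95 and 10.61 in sufficient root against 4.42, 5.95 and 7.01 in deficient root, again as lowest, median and highest. LOC4345573 read 5.54, 7.05 and 7.62 in sufficient leaf against 3.78, 4.18 and 4.47 in deficient leaf, and 8.34, 9.22 and 10.72 in sufficient root against 4.86, 5.59 and 6.97 in deficient root. The states of both genes did not overlap in any pair. A further LOC4345573 probe set, with a highest group mean of 8.9, differed by only -0.06 to 0.49 over the 6 pairs.

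LOC4334216 differed by 3.3 in leaf and 3.11 in root. LOC4334617 differed by 3.67 in leaf and 2.69 in root. LOC4352132 differed by 2.75 in leaf and 1.93 in root. These 3 genes had 6 pairs without overlap, as did LOC4342269, at 1.87 in leaf and 2.14 in root. LOC4352127, at 2.16 in leaf and 2.01 in root, had only 4 such pairs. Its arrays of deficient 9311 root read 6.66, 7.79 and 9.68, and the highest of these lay above the lowest of the sufficient arrays, 9.09. The gene's other probe set, with a highest group mean of 7.25, differed by -0.43 to 0.32.

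RBBI3.3 (LOC9271230) encodes a trypsin inhibitor of the Bowman-Birk type, a family known as a defence against insect feeding. Its lowest, median and highest of 9 arrays were 9.23, 9.57 and 10.48 in sufficient leaf against 5.98, 6.48 and 6.91 in deficient leaf, and 10.34, 10.90 and 11.81 in sufficient root against 7.64, 9.51 and 10.13 in deficient root. The mean difference was 3.3 in leaf, 9.84-fold, and 1.79 in root, 3.46-fold, with no overlap within any pair. Its neighbour in the gene order of the reference annotation is pinA (LOC9268662), also a riser, at 2.52 in leaf and 1.79 in root. After group means were removed, the 2 probe sets correlated at 0.97 over 36 arrays, and whether their probes bind each other's RNA was not tested.

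Cht8 (LOC4349267), a chitinase, an enzyme that cuts the chitin of fungal walls, was a riser on 2 probe sets, at 2.64 and 2.27 in leaf and 1.58 and 1.33 in root. On the first, its lowest, median and highest were 10.49, 11.42 and 12.13 in sufficient leaf against 7.75, 8.47 and 10.84 in deficient leaf, and 8.79, 9.93 and 10.64 in sufficient root against 6.62, 8.28 and 9.98 in deficient root. The states overlapped in 3 of the 6 pairs. In 9311 root the third deficient array read 9.98, above the third sufficient array at 9.55, and in PA64s leaf the first deficient array read 10.84 against 10.49 in the third sufficient array. The remaining Cht8 probe set had no group mean above 2.69 and gave no information on the gene.

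KPHMT1 (LOC4326739), a ketopantoate hydroxymethyltransferase of pantothenate synthesis, read 9.28, 9.74 and 10.21 in sufficient leaf against 7.09, 7.91 and 8.27 in deficient leaf, and 8.34, 8.64 and 9.13 in sufficient root against 7.23, 7.66 and 7.91 in deficient root. ADF5 (LOC4332220), an actin-depolymerising factor, read 10.67, 10.90 and 11.10 in sufficient leaf against 8.92, 9.45 and 9.95 in deficient leaf, and 11.18, 11.54 and 11.75 in sufficient root against 10.26, 10.45 and 10.84 in deficient root. Both had no overlap in any pair, and both differed more in leaf, KPHMT1 by 1.92 against 1.13 in root and ADF5 by 1.48 against 0.95 in root.

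CDKE-1 (LOC4349519), a cyclin-dependent kinase of the Mediator complex, and OsPP2C45 (LOC4337276), a protein phosphatase of class 2C, were risers on 1 of their 2 probe sets, the dimmer one. The CDKE-1 member read 5.88, 7.35 and 8.01 in sufficient leaf against 5.07, 5.26 and 5.98 in deficient leaf, and 6.79, 7.39 and 8.11 in sufficient root against 5.39, 5.98 and 6.31 in deficient root. A second CDKE-1 probe set, brighter at a highest group mean of 9.76, had differences of -0.11 to 0.04 over the 6 pairs. The OsPP2C45 member differed by 2.82 in leaf and 1.68 in root, with 4 of the 6 pairs free of overlap. Its second probe set, at a highest group mean of 10.40, had differences of -0.61 to 0.05. For these 2 genes the array therefore gave 2 answers, and which probe set follows the gene's main transcript was not tested.

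**Figure D2:**
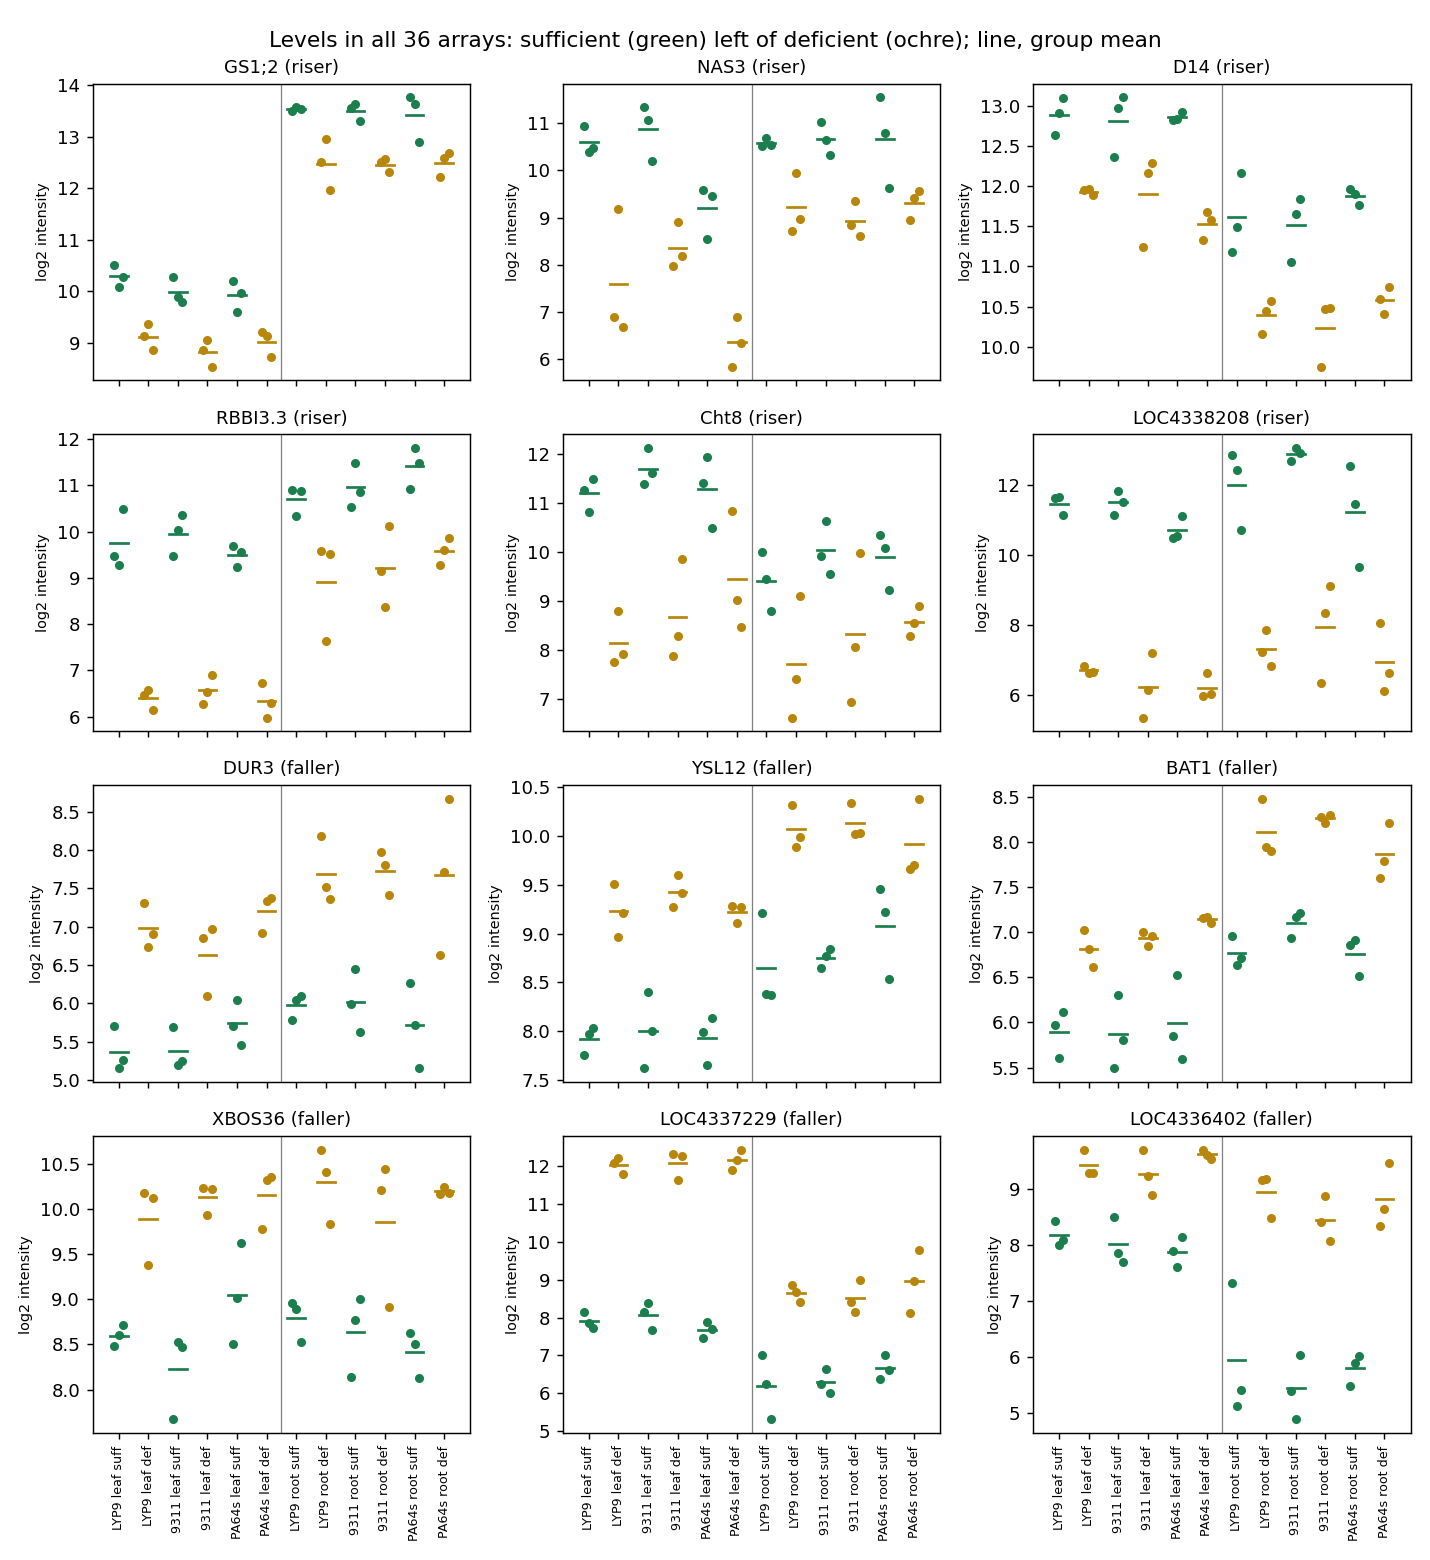
Log2 intensity of 12 members on all 36 arrays, by genotype and tissue, with sufficient arrays in green left of deficient arrays in ochre and a line at each group mean. The top 6 panels are risers and the bottom 6 fallers; GS1;2 arrays lie between 8.53 and 10.50 in leaf and between 11.96 and 13.77 in root.

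Among the fallers, DUR3 (LOC4349520) encodes a high-affinity urea transporter. In leaf, DUR3 read 5.70, 5.15 and 5.26 in sufficient LYP9 against 7.31, 6.74 and 6.91 in deficient LYP9. Its leaf values were 5.69, 5.20 and 5.25 in sufficient 9311 against 6.85, 6.09 and 6.97 in deficient 9311, and 5.71, 6.05 and 5.46 in sufficient PA64s against 6.92, 7.33 and 7.38 in deficient PA64s. Each genotype's sufficient leaf arrays all lay below its deficient ones. In root, DUR3 read 5.78, 6.05 and 6.09 in sufficient LYP9 against 8.18, 7.52 and 7.36 in deficient LYP9. In the parents it read 5.99, 6.45 and 5.62 in sufficient 9311 against 7.98, 7.81 and 7.41 in deficient 9311, and 6.27, 5.72 and 5.16 in sufficient PA64s against 6.63, 7.71 and 8.67 in deficient PA64s. The states did not overlap in any pair, and DUR3 was lower in sufficient plants by 1.45 log2 units in leaf, 2.73-fold, and by 1.79 in root, 3.47-fold. The lowest value in sufficient plants was 5.15. DUR3 adjoins CDKE-1 in the gene order, and the CDKE-1 member probe set differed in the opposite direction. The brighter CDKE-1 probe set differed by only -0.11 to 0.04, so the direction of that gene is not settled.

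YSL12 (LOC4336442) belongs to the yellow stripe-like transporters, a family that carries metals bound to nicotianamine or its derivatives. In leaf, YSL12 read 7.76, 7.97 and 8.03 in sufficient LYP9 against 9.51, 8.97 and 9.21 in deficient LYP9. Its leaf values were 7.62, 8.40 and 8.0 in sufficient 9311 against 9.27, 9.60 and 9.42 in deficient 9311, and 7.99, 7.66 and 8.14 in sufficient PA64s against 9.28, 9.11 and 9.27 in deficient PA64s. Each genotype's sufficient leaf arrays all lay below its deficient ones. In root, YSL12 read 9.21, 8.38 and 8.37 in sufficient LYP9 against 10.32, 9.89 and 9.99 in deficient LYP9. For the parents, root arrays gave 8.65, 8.77 and 8.84 in sufficient 9311 against 10.34, 10.02 and 10.03 in deficient 9311, and 9.46, 9.22 and 8.54 in sufficient PA64s against 9.66, 9.70 and 10.38 in deficient PA64s. No pair overlapped, although in PA64s root the sufficient arrays reached 9.46 and the lowest deficient array was 9.66. The mean difference was -1.34 in leaf and -1.21 in root. A second YSL12 probe set, with a highest group mean of 5.53, had differences of -0.20 to 0.31. The iron list thus held 1 riser, NAS3, and 1 faller, YSL12, among 30 genes.

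BAT1 (LOC4324220), an amino acid transporter, read 5.49, 5.85 and 6.53 in sufficient leaf against 6.62, 7.0 and 7.17 in deficient leaf, and 6.52, 6.91 and 7.21 in sufficient root against 7.60, 8.21 and 8.48 in deficient root. Its groups did not overlap in any pair, but 3 other BAT1 probe sets differed by no more than 0.49 in size, all in the same direction. XBOS36 (LOC4339988), a ubiquitin ligase with ankyrin repeats, read 7.67, 8.53 and 9.62 in sufficient leaf against 9.38, 10.18 and 10.36 in deficient leaf, and 8.13, 8.63 and 9.0 in sufficient root against 8.92, 10.21 and 10.66 in deficient root. In 9311 root the third deficient array of XBOS36, at 8.92, lay under the third sufficient array at 9.0. Its second probe set had differences of -1.14 to -0.38, in the same direction in all pairs.

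The faller with the largest difference was LOC4337229. In leaf, LOC4337229 read 8.14, 7.85 and 7.73 in sufficient LYP9 against 12.07, 12.21 and 11.79 in deficient LYP9. In the parents it read 8.14, 8.37 and 7.68 in sufficient 9311 against 12.30, 11.63 and 12.25 in deficient 9311, and 7.45, 7.89 and 7.71 in sufficient PA64s against 11.87, 12.15 and 12.42 in deficient PA64s. Each genotype's sufficient leaf arrays all lay below its deficient ones. In root, LOC4337229 read 7.01, 6.24 and 5.32 in sufficient LYP9 against 8.85, 8.66 and 8.40 in deficient LYP9. For the parents, root arrays gave 6.25, 6.64 and 6.01 in sufficient 9311 against 8.40, 8.15 and 8.98 in deficient 9311, and 6.37, 7.02 and 6.63 in sufficient PA64s against 8.13, 8.95 and 9.77 in deficient PA64s. Nothing overlapped, and the mean difference was -4.19 in leaf, 18.26-fold, and -2.31 in root, 4.97-fold. Its 2 other probe sets had differences of -4.12 to -1.87 and -3.01 to -0.25 over the 6 pairs, so all 3 were lower in sufficient plants throughout.

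The other leading fallers are loci without names, and the annotation marks LOC4331496 as a long noncoding RNA. LOC9266342 read 6.81, 7.26 and 7.84 in sufficient leaf against 9.05, 9.41 and 9.97 in deficient leaf, and 5.49, 6.09 and 6.81 in sufficient root against 8.61, 9.02 and 9.19 in deficient root. LOC4340883 read 7.95, 9.53 and 11.35 in sufficient leaf against 11.64, 12.10 and 12.82 in deficient leaf, and 4.26, 4.62 and 4.94 in sufficient root against 5.91, 6.18 and 6.78 in deficient root. Sufficient and deficient arrays of both were apart in all pairs. LOC4336402 had differences of -1.42 in leaf and -3.01 in root, with the first sufficient LYP9 root array at 7.31 and the other two at 5.12 and 5.41. LOC4331496 had differences of -1.70 in leaf and -1.57 in root but overlapped in 2 pairs. In 9311 root the first sufficient array read 7.71, above all 3 deficient arrays at 7.32, 7.23 and 7.63. LOC4332717, LOC4340559, LOC4345923, LOC4342004 and LOC4332321 had differences of -2.45 to -1.16 in leaf and -1.64 to -1.24 in root.

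Within pairs, the sufficient arrays of 49 risers all lay above the deficient arrays in 6 of 6 pairs, and those of 24 fallers all lay below. Over all probe sets at the level limit, 0.699% were apart in this way upward and 0.45% downward. These counts follow from the rule and are given as a description. A further 22 risers and 5 fallers were apart in 5 pairs, and 3 risers and 1 faller in only 3.

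The rule was then applied to 2 arrays per group, and the sign was read in the third, which that choice did not use. The probe sets chosen this way only partly match the 122 members, whose choice used all 36 arrays. The third array is of the same group, and the labels do not say whether it came from separate plants or barrels. The background is all probe sets at the level limit, not chosen by their difference, so the counts below are a description. Without the arrays numbered 1, 72 risers and 33 fallers were chosen, and 66 risers and 29 fallers had the same sign in all 6 pairs of the arrays left out, against a background of 8.47% and 5.88% of probe sets. Without the arrays numbered 2, 69 of 71 risers and 28 of 29 fallers did so, against 8.43% and 5.84%. Without the arrays numbered 3, 53 of 77 risers and 22 of 25 fallers did so, against 10.4% and 6.49%. In the arrays left out, the median difference of the chosen risers was 1.55, 1.49 and 1.63, and that of the fallers -1.46, -1.29 and -1.35. The 0.8 limit itself was met in all 6 pairs of single arrays by 36, 37 and 27 of these risers and by 9, 11 and 13 of these fallers.

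Other probe sets of the member genes gave a second view. For 23 member genes, 26 further probe sets were on the array, of which 13 had the direction of the member in all 6 pairs and none had the opposite direction in all 6. Over all probe sets at the level limit, 15.21% were higher and 10.19% lower in all 6 pairs. The 26 mix genes of both directions and were not held to the level limit, so these shares are not a like comparison. Whether the further probe sets share probes with the members was not tested. Of these 26, 5 never reached a group mean of 6. LOC4349190, a faller at -1.12 in leaf and -2.06 in root, had a second probe set that was higher in sufficient leaf by up to 1.41 and lower in sufficient root by up to 1.79. Of all members, 10.7% were probe sets of the type that can match several transcripts (suffix s), against 4.9% of all probe sets, and 11.5% were of the type with cross-matching probes (suffix x), against 12.5%. A further 7.4% carried the suffix a, against 2.5%. Members with suffix s included both LOC4338208 probe sets, RBBI3.3 and DUR3, and those with suffix x included LOC4337229, LOC9266342 and XBOS36. Whether their values hold signal from other transcripts was not tested.

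The size of the response was compared between tissues as a description. The mean riser difference had a median of 1.61 in leaf and 1.57 in root, and the fallers -1.42 in leaf and -1.47 in root. In 33 risers all 3 leaf differences exceeded all 3 root differences, and in 24 the reverse held. Of the fallers, 6 were of each kind. LOC4332568 had the largest lead of leaf over root among risers with a gene, at 3.64, 4.27 and 3.20 in LYP9, 9311 and PA64s leaf and 1.21, 1.27 and 0.90 in their roots. LOC4346642 followed at 3.46 in leaf and 1.19 in root, and LOC9268304 at 3.22 in leaf and 1.33 in root. Root led most in LOC4352286, in LOC4347418 at 1.51 in leaf and 2.80 in root, and in LOC4327515 at 1.35 in leaf and 2.63 in root. A dim second LOC4327515 probe set, with a highest group mean of 4.03, differed by -0.57 to 0.29. Among fallers, leaf led most in LOC4337229, in LOC4340559 at -2.45 in leaf and -1.32 in root, and in LOC4332717 at -2.27 in leaf and -1.47 in root. Root led most in LOC4336402, LOC4349190 and LOC9266342.

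In the hybrid, the nutrient difference of 35 risers in leaf and 45 in root lay between those of the parents, as did 8 fallers in leaf and 15 in root. For all probe sets at the level limit the share was 36.5% in leaf and 55.1% in root. Of the 33 fallers, 18 had a smaller difference in LYP9 leaf than in either parent and 7 a larger one, while in root 5 had a smaller and 13 a larger one. Over all probe sets at the level limit, LYP9 had the smaller difference in 33.5% and the larger in 31.1% in leaf, and in 32.8% and 24.4% in root. Smaller and larger were judged by size without sign, but lying between the parents was judged with sign. Where the parents differ in sign, a probe set can thus count both as between and as smaller. Members keep the same sign in all pairs and cannot, so the shares over all probe sets are not a like comparison. The median faller difference was -1.24 in LYP9 leaf, against -1.61 in 9311 leaf and -1.41 in PA64s leaf, and -1.56 in LYP9 root, against -1.35 in 9311 root and -1.53 in PA64s root. Median riser differences were 1.69 in LYP9 leaf, against 1.69 in 9311 leaf and 1.60 in PA64s leaf, and 1.59 in LYP9 root, against 1.49 in 9311 root and 1.56 in PA64s root. These differences between genotypes were not tested, because the same contrast chose the members.

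**Figure D3:**
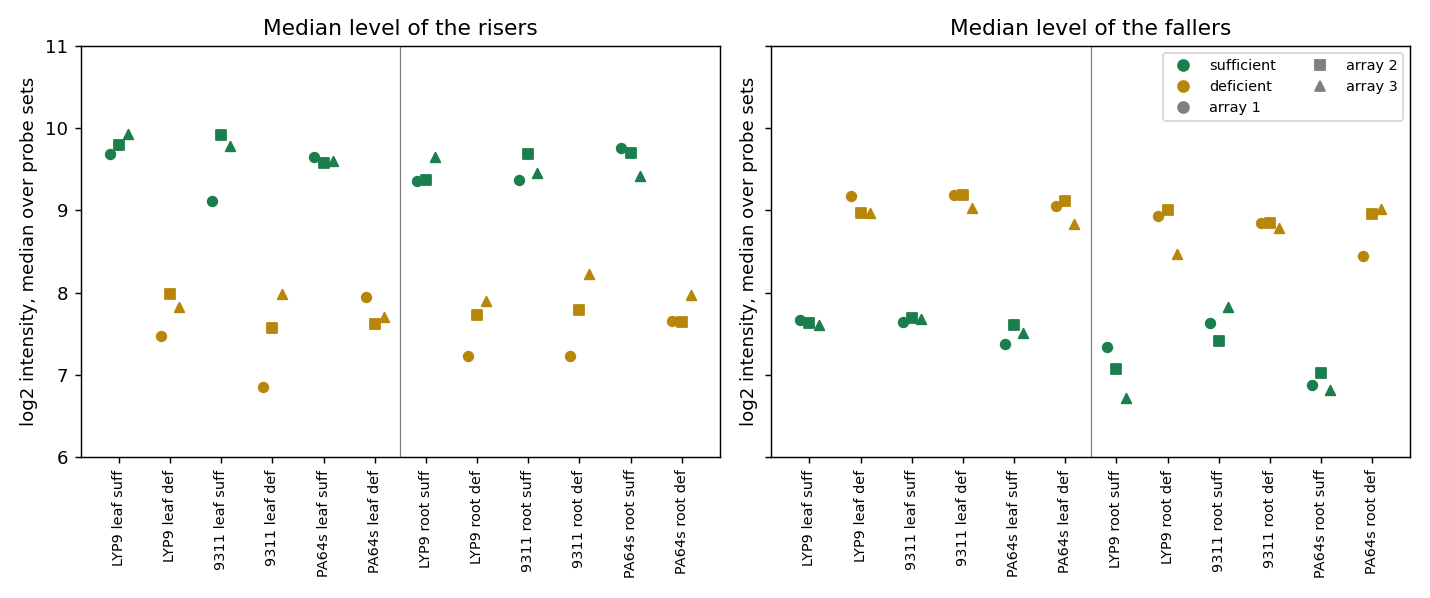
Median log2 intensity of the 89 risers (left) and 33 fallers (right) on each array, with sufficient arrays in green, deficient arrays in ochre and a marker shape for each array number. Riser medians ran from 9.11 to 9.93 in sufficient leaf, against 6.85 to 7.98 in deficient leaf.

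Arrays of 1 group varied together over the risers. In 9311, the arrays numbered 1 had the lowest riser levels in all 4 groups, at -0.41 from the group mean in sufficient leaf, -0.45 in deficient leaf, -0.32 in sufficient root and -0.36 in deficient root. Over all 12 groups, the arrays numbered 1 were lowest in 7. The medians over all probe sets at the level limit moved only between -0.01 and 0.01 on these 9311 arrays. After group means were removed, pairs of risers correlated with a median of 0.21 over the 36 arrays, pairs of fallers 0.14, risers with fallers -0.07, and probe sets in general 0.02. The riser pair LOC4343487 and LOC9268304, with 1 gene between them on the chromosome, correlated at 0.47.

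Whether members also differed in level between leaf and root was tested on all 36 arrays with limma, averaged over genotypes and states, which the rule did not use. GS1;2 was higher in root, at 8.53, 9.48 and 10.50 in leaf (lowest, median and highest of 18 arrays) against 11.96, 12.92 and 13.77 in root, a leaf minus root difference of -3.46 ± 0.09 (SE) with an adjusted p of 2.08e-24. Members called at an adjusted p under 0.05 numbered 80 of 89 risers, 42 higher and 38 lower in leaf, and 26 of 33 fallers, 15 higher and 11 lower. Over all 34316 probe sets tested, 81.4% were called, 43.9% higher and 37.5% lower in leaf. Being called was thus as common among probe sets in general, while the size was larger, with a median absolute difference of 1.19 for risers and 0.92 for fallers against 0.48 for all. The probe sets in general were not matched to the members in level or in spread between arrays. A difference of 1 or more was found for 51 risers and 16 fallers.

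The riser furthest toward leaf was LOC4347585, at 10.92, 12.39 and 13.11 in leaf against 5.08, 5.73 and 7.34 in root. Its difference was 6.38 ± 0.12 (SE, adjusted p = 1.88e-28, limma), and the 18 leaf arrays all lay above the 18 root arrays. LOC4343189 followed at 5.23 ± 0.08 and LOC4349652 at 5.17 ± 0.12. Furthest toward root were LOC4343487 at -4.11 ± 0.20, LOC4332568 at -4.04 ± 0.17 and LOC4332069 at -3.80 ± 0.12. Of the named risers, D14 was higher in leaf by 1.28 ± 0.10 and Cht8 by 1.08 ± 0.27 and 1.26 ± 0.24 on its 2 probe sets, whereas RBBI3.3 stood at -2.05 ± 0.17 and NAS3 at -1.07 ± 0.20. OsPP2C45 did not pass, at 0.49 ± 0.24 with an adjusted p of 0.0606 (limma).

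LOC4340883 led the fallers, at 7.95, 11.50 and 12.82 in leaf against 4.26, 5.43 and 6.78 in root, a difference of 5.49 ± 0.18 (SE, adjusted p = 3.15e-22, limma). LOC4331496 followed at 2.53 ± 0.22 and LOC4337229 at 2.44 ± 0.14. Toward root lay LOC4336108 at -3.89 ± 0.18, LOC4349190 at -2.42 ± 0.26 and BAT1 at -1.04 ± 0.08. YSL12 stood at -0.81 ± 0.09 and DUR3 at -0.58 ± 0.14, both higher in root. XBOS36 had nearly equal levels, with a difference of -0.03 ± 0.13 and an adjusted p of 0.851 (limma).

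**Figure D4:**
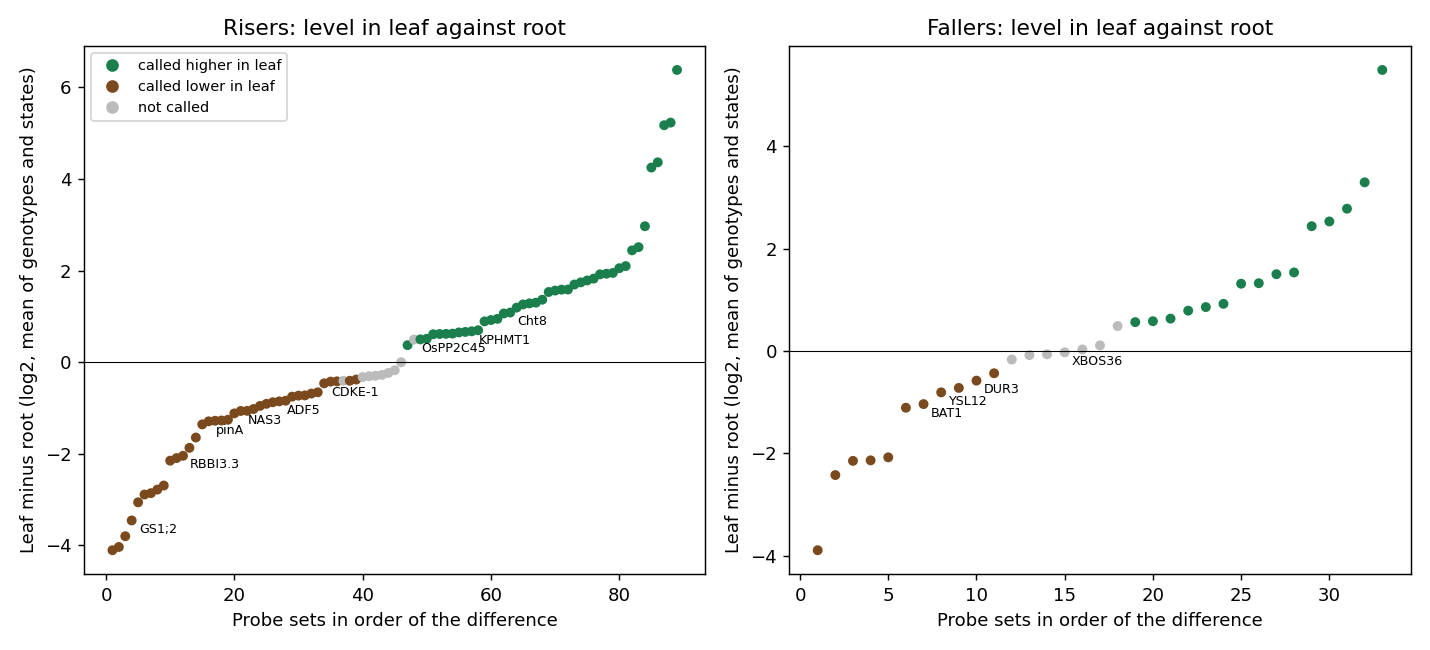
Leaf minus root difference in log2 intensity of each riser (left) and faller (right), averaged over genotypes and nutrient states and ordered by size, with probe sets called higher in leaf in green, called lower in brown and not called in grey. Members with a shared nutrient direction ran from -4.11 to 6.38 among risers and from -3.89 to 5.49 among fallers.

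The parents were compared within each tissue over both states. In leaf, 11 of 88 risers tested were called, 5 higher and 6 lower in 9311 than in PA64s, and 3 of 33 fallers, all higher in 9311. The share over all probe sets was 11.9%, with 5.43% higher and 6.44% lower. In root, 8 of 89 risers were called, 3 higher and 5 lower, and 4 of 31 fallers, all higher, against 13.3% of all probe sets, 6.15% higher and 7.19% lower. LOC4345573 in leaf and LOC4340883 and LOC4324494 in root fell under the filter on dim probe sets and were not tested.

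NAS3 was the named gene among these calls. In leaf it read 7.98, 9.55 and 11.35 in 9311 (lowest, median and highest of 6 arrays) against 5.84, 7.72 and 9.58 in PA64s, a difference of 1.84 ± 0.37 (SE, adjusted p = 0.00268, limma). In root it read 8.61, 9.84 and 11.03 in 9311 against 8.95, 9.59 and 11.55 in PA64s, a difference of -0.18 ± 0.28 with an adjusted p of 0.663 (limma). The ranges hold both nutrient states and overlap, and within each state of leaf all 3 arrays of 9311 lay above those of PA64s.

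Lower in 9311 were LOC4343216, at -1.81 ± 0.33 in leaf and -1.24 ± 0.30 in root, and LOC4335460 in leaf, at -1.44 ± 0.18. LOC4346642 in leaf, at -1.11 ± 0.26, and LOC4343189 in root, at -0.84 ± 0.13, were also lower. LOC4333744 in root, at -0.82 ± 0.23 (adjusted p = 0.0287, limma), lost its call without any 1 of 5 arrays. Higher in 9311 were LOC4332069 and LOC4349652 in leaf, by 0.82 ± 0.18 and 0.69 ± 0.15, and LOC4343487 in root, by 1.96 ± 0.35. LOC4332568 in root, at 0.68 ± 0.20 (adjusted p = 0.0336, limma), lost its call without any 1 of 6 arrays. The faller LOC4331496 was higher in 9311 leaf by 1.41 ± 0.38 (adjusted p = 0.0197, limma), a call lost without any 1 of 3 arrays. LOC4333602, also a faller, was higher in 9311 root by 0.56 ± 0.11.

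The hybrid was compared with the mean of its parents on the log2 scale. In each tissue 1 riser was called, 1 of 88 in leaf and 1 of 89 in root, and no faller was called by limma, 0 of 33 in leaf and 0 of 31 in root. The share over all probe sets was 1.22% in leaf, 1.14% higher and 0.0729% lower, and 0.947% in root, 0.938% higher and 0.00874% lower. At an unadjusted p under 0.05, 8 risers and 6 fallers passed in leaf and 6 risers and 1 faller in root, against 6.16% of all probe sets in leaf and 3.47% in root. The riser called was the same probe set in both tissues, one with no gene listed, described because it was the only one. It read 10.02 to 12.08 in LYP9 leaf, against 7.15 to 8.61 in 9311 leaf and 11.33 to 12.60 in PA64s leaf. The hybrid exceeded the log2 mid-parent by 1.16 ± 0.10 in leaf and 1.26 ± 0.27 in root (SE, adjusted p = 1.13e-06 and 0.0314, limma). Against the mean of the parents on the intensity scale, it exceeded by 0.08 in leaf and 0.44 in root. The root call was lost without any 1 of 8 arrays and with array number as a block.

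Whether the parental difference itself changed between tissues was tested as an interaction on 36 arrays. The call was made for 2 of 89 risers and 1 of 33 fallers, against 5.13% of all probe sets, 2.54% greater in leaf and 2.6% smaller. The named gene was NAS3, whose 9311 minus PA64s difference was greater in leaf than in root by 2.02 ± 0.49 (SE, adjusted p = 0.00953, limma).

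The same nutrient contrast was then read for the genes of the nitrogen, ureide, iron and phosphate lists that are not members. The genes named below were picked from the lists after their values were seen. For sufficient minus deficient averaged over genotypes, 37.9% of all probe sets were called in leaf, 24.4% higher and 13.5% lower, and 17.9% in root, 10.1% higher and 7.76% lower. A difference was called at an adjusted p under 0.05 (limma, Benjamini-Hochberg). Of the other nitrogen genes, 8 rose and 5 fell of 19 tested in leaf, and 5 rose and 6 fell of 20 in root. GLN1-1, a further cytosolic glutamine synthetase, fell in both tissues, at -0.89 ± 0.13 in leaf and -0.78 ± 0.13 in root, opposite to GS1;2. GLN2, the plastid form, rose by 0.71 ± 0.09 in root and by 0.38 ± 0.09 in leaf, although the leaf call was lost after quantile normalization (adjusted p = 0.0665, limma). GDH, a glutamate dehydrogenase, rose by 1.70 ± 0.15 in leaf and 0.51 ± 0.09 in root.

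Among transporters, NRT2.3, for nitrate, fell, at -0.83 ± 0.10 in leaf and -0.92 ± 0.24 in root, and AMT3-2, for ammonium, fell, at -0.66 ± 0.21 in leaf and -2.02 ± 0.16 in root. AMT1-2, an ammonium transporter, fell in leaf, at -0.68 ± 0.10, and rose by 2.0 ± 0.23 in root, so it was no member. The ammonium transporters AMT2-3, in leaf and root, and AMT3-1, in leaf, rose, but these calls were lost after quantile normalization. The differences were then 0.20 in leaf and 0.27 in root for AMT2-3, and 0.26 in leaf for AMT3-1 (adjusted p = 0.0682, 0.0619 and 0.0582, limma). Beside DUR3, 2 of 6 ureide and urea genes rose and 1 fell in each tissue. UAH and UGLYAH, enzymes of the last steps of ureide breakdown, rose in both tissues, by 0.42 ± 0.06 and 0.66 ± 0.09 in leaf and 0.81 ± 0.12 and 0.57 ± 0.07 in root. AAH, allantoate amidohydrolase, fell in leaf, at -1.13 ± 0.17, and did not pass in root, at -0.12 ± 0.16 (adjusted p = 0.663, limma).

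Of the iron genes other than NAS3 and YSL12, 4 rose and 5 fell of 21 tested in leaf, and 8 rose and 5 fell of 23 in root. NAS1 and NAS2, the other nicotianamine synthases tested, rose in root by 2.73 ± 0.30 and 2.45 ± 0.29, and NAS2 did not pass in leaf, at 0.15 ± 0.09 (adjusted p = 0.171, limma). NAAT1, the next enzyme on the way to the chelators, fell in leaf, at -1.48 ± 0.25, and rose in root by 1.80 ± 0.20. IRO2, a transcription factor of the iron response, fell in leaf, at -1.54 ± 0.24, and rose in root by 0.92 ± 0.16. Of the phosphate genes, 2 rose and 5 fell of 17 tested in leaf, and 3 rose and 5 fell of 20 in root, and none of 23 was a member. SPX2, of the phosphate-sensing SPX family, fell in both tissues, at -1.25 ± 0.26 in leaf and -0.96 ± 0.26 in root.

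The remaining lists held 1 member in all, OsPP2C45, among 74 stress and abscisic acid genes, of whose other genes 10 rose and 12 fell of 68 tested in leaf, and 8 rose and 13 fell of 68 in root. The calcineurin B-like proteins and their kinases had 3 higher and 7 lower of 27 in leaf, and 3 higher and 3 lower of 28 in root. Of 26 nutrient-related transcription factors, 3 rose and 5 fell of 21 tested in leaf, and 2 rose and 4 fell of 23 in root. Glutaredoxins had 5 higher and 1 lower of 16 in leaf, and 3 higher and 2 lower of 15 in root. Sulphate and potassium transport genes had 7 higher and 2 lower of 20 in leaf, and 3 higher and 3 lower of 17 in root. Cell wall and phenylpropanoid genes had 13 higher and 2 lower of 22 in leaf, and 2 higher and 9 lower of 24 in root, beside the shares over all probe sets of 24.4% higher and 13.5% lower in leaf and 10.1% and 7.76% in root. Chlorophyll genes had 7 higher and 3 lower of 12 in leaf, and 0 higher and 3 lower of 9 in root. Trehalose genes had 1 higher and 1 lower of 8 in leaf, and 4 higher and 1 lower of 8 in root. Clock genes had 0 higher and 1 lower of 7 in leaf, and 1 higher and 3 lower of 7 in root.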

How the data were processed

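Leaf and root RNA of 3 rice genotypes in 2 nutrient states was measured on 36 Affymetrix arrays. The authors deposited linear intensity values per probe set, with a floor of 1; per the submitters' processing notes RMA and affy were used, and no label states versions or any further scaling. The intensities were taken to log2 with no further scaling or pseudocount. Array precision is limited by 3 arrays per group. Members met a log2 difference of 0.8 and a level of 6 in all 6 pairs. Members and gene lists were chosen with earlier results of these data known, and entries of the lists that a symbol search had matched wrongly were removed.

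Tests used limma 3.58.1 in R 4.3.3, with lmFit on the log2 values of single arrays, 1 mean fitted per group, and eBayes. They covered the 60% of probe sets with the highest mean, 34316 of 57194, with Benjamini-Hochberg adjustment and a threshold of 0.05. Leaf minus root and the change of the parental difference between tissues used 36 arrays, and the parental and hybrid contrasts 18 arrays of a tissue each. The code was tested on simulated data. Python 3.11.15 with pandas 2.3.3 did the rest. Named were, among members with 1 gene, the 12 with the largest smallest difference in each direction, every list member, the 3 largest calls per contrast and direction, the 3 with the largest lead of either tissue, and the probe sets nearest the limit. D14, KPHMT1, ADF5 and other members with a name were added after their values were seen, as were the application of the rule without 1 array number and the nutrient test of list genes.

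Genes come from the platform annotation, updated through a RefSeq table of assembly ASM3414082v1, which also gave gene neighbours. Of 122 members, 92 have 1 gene, none several and 30 none listed. No label states the genome build behind the probes, so no coordinates are printed. Alternatives were other scalings, a pseudocount of 16, other limits and filters, eBayes options, a replicate block, all arrays in 1 fit and leaving out each array.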

Additional observations from a re-analysis of the deposited data

Results flagged for a closer look

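The difference between 9311 and PA64s itself differed between leaf and root for 3 members (limma on 36 arrays, Benjamini-Hochberg). These were 2.25% of the risers and 3.03% of the fallers, fewer than the 5.13% called over all probe sets. NAS3 had an interaction of 2.02 ± 0.49 (SE, adjusted p = 0.00953): its 9311 minus PA64s difference was 1.84 in leaf and -0.18 in root. A faller with no gene listed had an interaction of 3.39 ± 0.42 (adjusted p = 1.28e-06, limma). It read 7.82, 8.56 and 10.41 in 9311 leaf (lowest, median and highest of 6 arrays) against 4.96, 6.00 and 6.81 in PA64s leaf, and 7.96, 9.11 and 10.62 in 9311 root against 8.83, 9.60 and 10.72 in PA64s root. A riser, also with no gene listed, had an interaction of -1.24 ± 0.35 (adjusted p = 0.0324, limma). It read 6.79, 8.40 and 9.69 in 9311 leaf against 7.28, 8.34 and 9.60 in PA64s leaf, and 8.31, 9.63 and 10.98 in 9311 root against 7.60, 8.06 and 9.76 in PA64s root.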

How the results depend on the processing

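The member count followed the limits. A difference limit of 1.0 left 46 risers and 13 fallers, 59 members, and a limit of 0.6 gave 155 risers and 67 fallers, 222 members. A level limit of 7 left 21 fallers. Quantile normalization gave 72 risers and 42 fallers, of which 71 and 33 were members, and median centring 76 and 36, of which 76 and 33 were members. Leaving out 1 array gave 107 to 128 members, 74 to 96 risers and 29 to 36 fallers, and leaving out all arrays of 1 number gave 100 to 105 members. Of the risers found then, 61 of 72, 61 of 71 and 61 of 77 were members without numbers 1, 2 and 3, and of the fallers 28 of 33, 21 of 29 and 22 of 25. Without 1 array, calls ran from 104 to 108 for leaf minus root, 11 to 15 and 8 to 16 for 9311 minus PA64s in leaf and root, 1 to 2 and 0 to 2 for LYP9 minus mid-parent in leaf and root, and 2 to 7 for the change of the parental difference between tissues, 7 being without the first sufficient PA64s root array. LYP9 minus mid-parent had 2 calls in leaf without the third PA64s leaf array of either state, and 2 in root without the third sufficient LYP9 root array. With all 36 arrays in 1 fit, LYP9 minus mid-parent in leaf had 3 calls, and LOC4332568 in root lost its call (adjusted p = 0.115, limma). No direction reversed.

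The replicate block gave 24 calls against 14 for 9311 minus PA64s in leaf, which is 19.8% of the members tested beside 15.8% of all probe sets, 5 against 3 for the change of the parental difference between tissues, and 0 against 1 for LYP9 minus mid-parent in root. Same-numbered arrays shared deviations in part, though not throughout. Their deviations correlated with a median of 0.28 in leaf (-0.31 to 0.66) and 0.11 in root (-0.43 to 0.56). For arrays of different numbers the median was -0.127 in leaf and -0.043 in root. Among the arrays, 13 of 18 in leaf and 12 of 18 in root correlated best with their own number. The main tests did not use the array number. The planned promoter motif search was not run. Small differences are limited by 3 arrays per group and, for dim probe sets, by signal near background.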
